A study of Mus musculus with 16 samples.

Results

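The genes described here handle calcium at the sarcoplasmic reticulum of skeletal muscle: Cacna1s, Ryr1, Trdn, Casq1, Casq2, Atp2a1, Atp2a2, Sln and Pvalb. Every non-control probe that the array design names after them was taken, which gave 14 of 55681 probes for 9 of 34650 gene names. Calf muscle (gastrocnemius) of 3 Eif6+/+ mice (WT) and 3 Eif6+/- mice (Het) gave the RNA. Eif6 encodes eukaryotic initiation factor 6, which binds the large ribosomal subunit. The mice were male C57BL6 littermates of 8 to 16 weeks, and the Het mice carried the lost Eif6 copy in every tissue. Whole-muscle RNA and pooled polysome RNA (sucrose gradient fractions of 15% to 50% sucrose whose transcripts carry at least 2 ribosomes) were each profiled on 3 arrays per genotype. Monosome RNA was profiled on 2 arrays per genotype, from WT replicates 1 and 2 and Het replicates 1 and 3. Each mouse gave all kinds of its RNA, and the 16 arrays lay on 2 slides that each held both genotypes. In every mouse the whole-muscle and polysome arrays lay on different slides, so a slide difference enters each within-mouse comparison of them. Polysomes lay on slide 1 for WT replicates 1 and 2 and Het replicate 1, and on slide 2 for the others.

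The sarcoplasmic reticulum is the internal calcium store of the muscle fibre. The voltage sensor in the transverse tubule (Cacna1s) opens the release channel of the reticulum (Ryr1), to which triadin (Trdn) ties the calcium-binding proteins of the store, calsequestrin 1 (Casq1, fast fibres) and calsequestrin 2 (Casq2, heart and slow fibres). The pumps SERCA1 (Atp2a1, fast fibres) and SERCA2 (Atp2a2, slow fibres and heart) return calcium to the store. Sarcolipin (Sln) is a small membrane protein that binds and slows the pumps, and parvalbumin (Pvalb) buffers calcium in the cytosol of fast fibres.

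The signal of a gene is the signal of a 60-base probe, so the probes on which the results turn are shown first, 5′ to 3′ as the array files give them. The Atp2a1 probe lies at chr7:133591703-133591762 on the minus strand of mouse build mm9, the build of all positions here. The probes of Casq1 (chr1:174140602-174142105, minus strand) and Ryr1 (chr7:29788789-29789487, minus strand) spread their 60 bases over 1504 and 699 bases of the genome and so cross exon junctions. A pair of Trdn probes lie at chr10:32915796-32915855 and chr10:33194264-33194323 on the plus strand, and start at bases 892 and 2262 of the same transcript.
Atp2a1, A_51_P244856: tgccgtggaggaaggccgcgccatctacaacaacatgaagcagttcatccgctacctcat
Casq1, A_51_P199104: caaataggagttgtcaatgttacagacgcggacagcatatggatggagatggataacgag
Ryr1, A_52_P391110: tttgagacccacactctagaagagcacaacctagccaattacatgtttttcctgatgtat
Trdn, A_55_P2401646: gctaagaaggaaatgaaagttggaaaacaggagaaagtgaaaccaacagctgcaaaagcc
Trdn, A_55_P1966778: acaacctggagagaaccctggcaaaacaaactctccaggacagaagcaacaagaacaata
The brightest Trdn probe (A_51_P249608, chr10:32919981-32920040) lies between these on the chromosome and was designed to another transcript, which the array annotation describes as a cardiac triadin isoform. The 13 other probes matched a RefSeq symbol equal to the array's name.

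All 14 probes passed the filter on low signal, which asked for 1 group with no array at background, and the brightest probe of each gene was well above background on all 16 arrays, except that of Atp2a2 on WT monosome 2. Values are log2 signals, set to 1 common distribution over the 12 arrays without monosomes, or over all 16 where monosomes are named. Loading is the polysome minus the whole-muscle log2 signal of the same mouse. The genes were chosen by their loading differences (Het minus WT) on these arrays, so genotype differences in loading, whole muscle and polysomes, and mean loading, are given as descriptions without a test. In bulk muscle, fewer cells of a type and less RNA per cell cannot be told apart. Eif6 itself was lower in Het in whole muscle (-0.91), polysomes (-1.31) and monosomes (-1.80), without overlap of the groups in any of them. All 10 fast-fibre markers were well above background on every array, and their summed log2 level was 19.36 and 19.385 in WT monosomes and 19.84 to 20.12 in the other groups. Array brightness (the 75th percentile of the signal) ranged from 12.7 to 150 scanner units. Its log2 polysome minus whole-muscle difference was -1.46 to 0.64 in WT mice and 1.16 to 2.98 in Het mice, without overlap of the genotypes. The arrays WT polysome 2 and WT monosome 2 stood apart from the other 14 in the signal along transcripts, and values without them are given below where they matter.

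**Figure D1:**
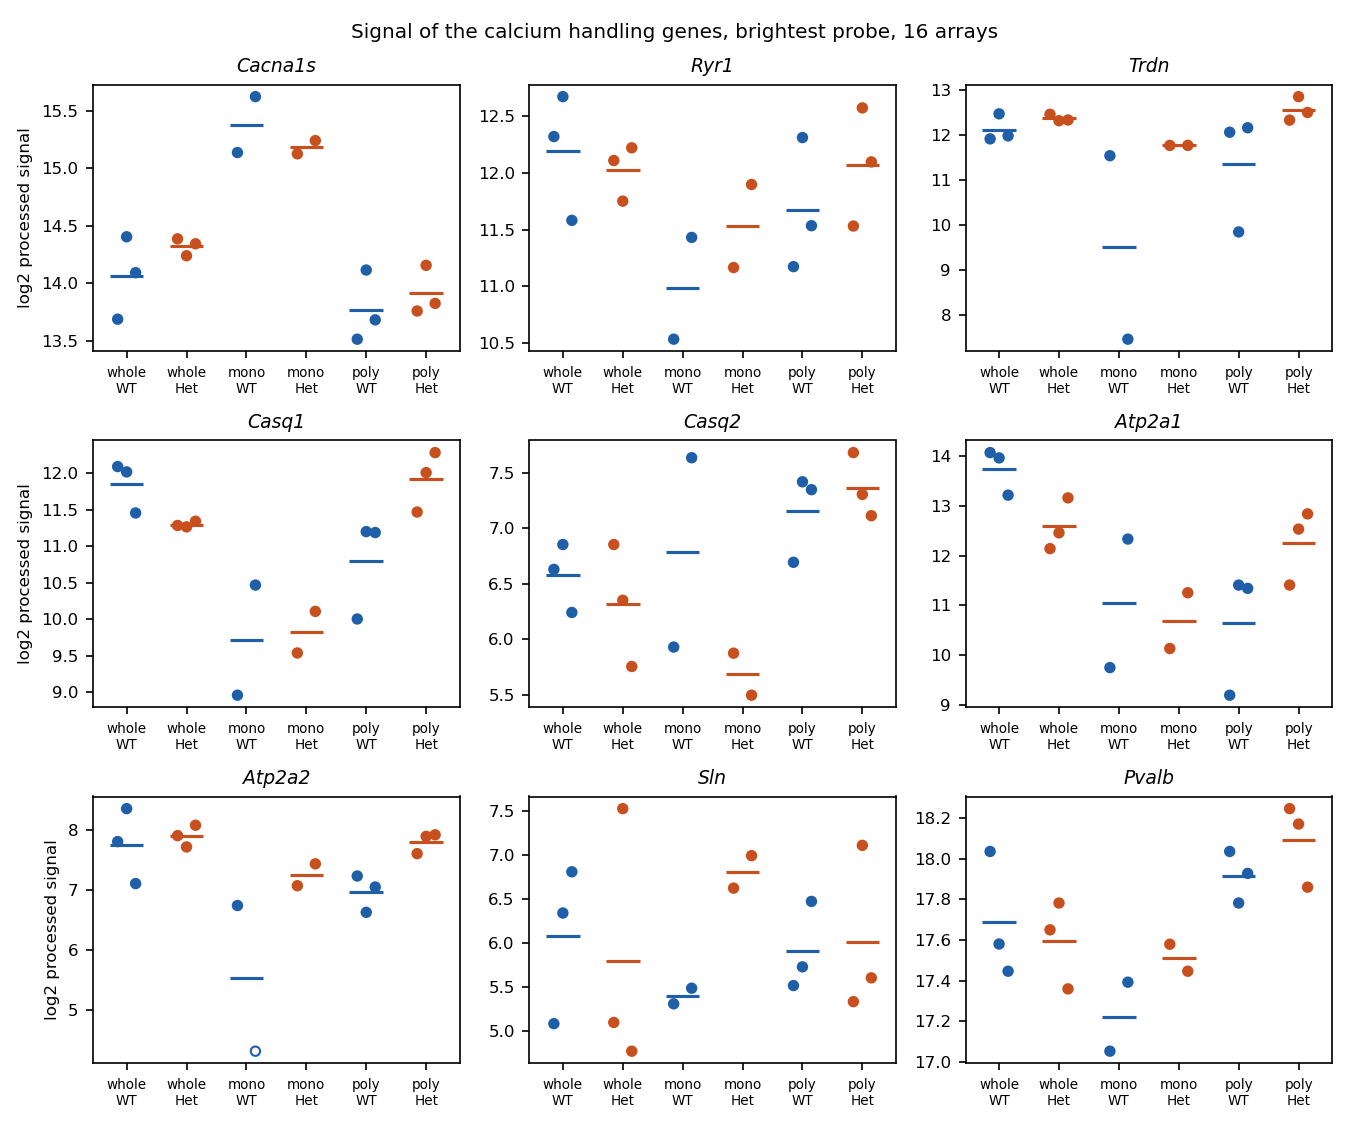
Log2 processed signal (vertical axis, own scale in each panel) of the brightest probe of the 9 genes on the 16 arrays, normalized together. Points are arrays in replicate order (blue WT, orange Het, open where not well above background), bars are group means; Cacna1s is highest in monosomes, and Trdn and Atp2a2 are lowest on WT monosome 2.

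The pump of fast fibres showed the widest genotype difference in loading among the 9 genes. In whole muscle the Atp2a1 signal was 14.38, 14.27 and 13.51 in WT replicates 1 to 3, and 12.43, 12.74 and 13.45 in Het. In polysomes it was 9.50, 11.698 and 11.63 in WT, and 11.700, 12.82 and 13.13 in Het. The WT signals were thus all above the Het signals in whole muscle and all below them in polysomes, each time by a narrow margin between the nearest pair. Loading was -3.11 ± 1.58 in WT (-4.89, -2.57 and -1.87) and -0.33 ± 0.40 in Het (-0.73, 0.08 and -0.33; SD, n = 3 each). The loading difference (Het minus WT) was 2.78 (SE 0.75), made up of -1.18 (SE 0.59) in whole muscle and 1.61 (SE 0.59) in polysomes. It lay above that of 99.6% of the 19814 probes tested, a rank that is not independent of the choice of the genes. Adding array brightness to the fit brought the loading difference to 0.72. No mouse had its whole-muscle and polysome arrays on the same slide, so fits on a single slide compared unpaired groups of different mice. These gave 1.51 on slide 1 and 3.24 on slide 2, which are not within-mouse loading differences. The polysome difference fell to 0.88 without WT replicate 1, and the whole-muscle difference to -0.41 on slide 1 alone.

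The mean loading over the 6 mice is built from the same within-mouse values that chose the genes, so it too is given without a test. For Atp2a1 it was -1.72 (SE 0.38), which is a 3.29-fold lower relative signal in polysomes than in whole muscle. Loading was below 0 in 5 of 6 mice, and the low mean came from the WT mice.

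Atp2a2, the pump of slow fibres, differed less. Its brightest probe (A_51_P451075, chr5:122903704-122903763) gave 8.12, 8.66 and 7.41 in WT whole muscle and 8.22, 8.02 and 8.39 in Het. In polysomes it gave 7.53, 6.92 and 7.35 in WT and 7.91, 8.20 and 8.23 in Het. The whole-muscle groups overlapped and the polysome groups did not. The polysome difference was 0.84 (SE 0.31) and the loading difference 0.70 (SE 0.47), which fell to 0.22 without WT replicate 2. Mean loading was -0.44 (SE 0.23). A second Atp2a2 probe (A_52_P168097, chr5:122910660-122910719) was well above background on 8 of 16 arrays, on none of the Het whole-muscle arrays and on 2 of 3 WT ones. It read 5.15, 4.86 and 3.69 in WT whole muscle and 1.75, 2.08 and 4.94 in Het, with overlap of the groups, and no fold is given. In polysomes, where it was well above background on all 6 arrays, it read 4.85, 6.82 and 4.31 in WT and 4.71, 4.64 and 5.29 in Het (difference -0.45, SE 0.84), opposite in sign to the brightest probe and with overlap. The mean of both probes gave a polysome difference of 0.20.

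Sarcolipin, the inhibitor of the pumps, varied more between mice than between groups in these RNA kinds. The Sln signal (A_52_P413395, chr9:53701574-53701633) was 5.34, 6.63 and 7.11 in WT whole muscle and 5.35, 7.83 and 5.01 in Het, and 5.78, 6 and 6.76 in WT polysomes against 5.59, 7.41 and 5.87 in Het. All these groups overlapped. Its loading difference was 0.40 (SE 0.45), 0.09 without Het replicate 3 and 0.73 without Het replicate 2, and its mean loading was 0.03 (SE 0.22).

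Casq1, the calcium-binding protein of the fast-fibre store, had the next largest loading difference. In whole muscle the Casq1 signal was 12.38, 12.30 and 11.74 in WT and 11.57, 11.55 and 11.63 in Het. In polysomes it was 10.30, 11.49 and 11.47 in WT and 11.76, 12.29 and 12.56 in Het. Neither pair of groups overlapped, with Het below WT in whole muscle and above WT in polysomes. Loading was -2.08, -0.82 and -0.27 in WT (mean -1.05 ± 0.93) and 0.18, 0.74 and 0.93 in Het (mean 0.62 ± 0.39; SD, n = 3 each), so that it was below 0 in every WT mouse and above 0 in every Het mouse. The loading difference was 1.67 (SE 0.51). Adding array brightness to the fit brought it to 0.42. Fits on a single slide held no within-mouse loading and compared polysomes with the whole muscle of other mice. As such unpaired differences they gave 1.02 on slide 1 and 1.72 on slide 2. The polysome difference, 1.12 (SE 0.34), was 0.72 without WT replicate 1.

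Casq2, the calsequestrin of heart and slow fibres, was relatively enriched in polysomes in both genotypes. Its signal (A_51_P174696, chr3:101949827-101949884) was 6.92, 7.15 and 6.52 in WT whole muscle, 7.15, 6.63 and 6.02 in Het whole muscle, 6.99, 7.72 and 7.65 in WT polysomes, and 7.99, 7.61 and 7.41 in Het polysomes. Loading was above 0 in 6 of 6 mice, between 0.07 and 1.13 in WT and between 0.84 and 1.39 in Het. Mean loading was 0.83 (SE 0.19, 1.77-fold), and 0.69 to 0.96 on leaving out each mouse. The genotype difference in loading was 0.48 (SE 0.37) with overlap of the groups, and it ranged from 0.22 (WT replicate 1 left out) to 0.75 (WT replicate 3 left out).

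The voltage sensor Cacna1s was even between genotypes, with overlapping groups in whole muscle and polysomes. Its brighter probe (A_51_P103541, chr1:138016020-138016079) gave 13.98, 14.75 and 14.41 in WT whole muscle, 14.73, 14.57 and 14.68 in Het whole muscle, 13.81, 14.43 and 13.97 in WT polysomes and 14.05, 14.47 and 14.12 in Het polysomes. Loading was below 0 in 6 of 6 mice for this probe (mean -0.38, SE 0.15) and for the second one (A_55_P2169923, chr1:138015618-138015677; mean -0.60, SE 0.22). The loading difference was -0.13 (SE 0.30) for the brighter probe, -0.31 without Het replicate 2 and -0.02 without Het replicate 1, and 0.40 (SE 0.45) for the second.

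Ryr1, the release channel itself, read 12.60, 12.95 and 11.87 in WT whole muscle, 12.39, 12.04 and 12.50 in Het whole muscle, 11.46, 12.59 and 11.82 in WT polysomes and 11.82, 12.85 and 12.38 in Het polysomes. Its loading was -1.14, -0.36 and -0.05 in WT and -0.57, 0.82 and -0.12 in Het. The groups overlapped, the loading difference was 0.56 (SE 0.47), and mean loading was -0.24 (SE 0.23). The loading difference was 0.17 without Het replicate 2 and 0.86 without Het replicate 1, and mean loading was -0.08 without WT replicate 1 or without Het replicate 1 and -0.43 without Het replicate 2. Fitted on each slide alone, as unpaired groups of different mice, the loading difference had opposite signs, -0.61 on slide 1 and 1.18 on slide 2.

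Trdn, the anchor of calsequestrin, depended on the probe and on a single mouse. In polysomes the brightest probe gave 12.35, 10.14 and 12.44 in WT and 12.60, 13.13 and 12.77 in Het. The groups did not overlap, and WT polysome 2 lay far below the other 5 arrays. The polysome difference was 1.19 (SE 0.50) and fell to 0.44 without WT replicate 2, and the loading difference of 0.95 (SE 0.75) fell to 0.03. The 2 probes of the longer transcript gave loading differences of 1.23 (A_55_P2401646, SE 0.79) and 1.12 (A_55_P1966778, SE 0.36). The first of these fell to 0.27 without WT replicate 2 and the other was then 1.20. For A_55_P1966778, loading was between -2.19 and -1.65 in WT and between -1.02 and -0.17 in Het, without overlap. Mean loading of A_55_P1966778 was -1.28 (SE 0.18) and below 0 in 6 of 6 mice, while that of the brightest probe was -0.28 (SE 0.38) and that of A_55_P2401646 -0.69 (SE 0.40).

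For parvalbumin, the cytosolic buffer, the brighter Pvalb probe (A_55_P2114437, chr15:78021951-78022010) lay between 17.59 and 18.35 on all 12 arrays. Its loading was 0.20 ± 0.20 in WT and 0.43 ± 0.11 in Het (SD, n = 3 each), with a mean of 0.31 (SE 0.14) over the 6 mice. The second probe (A_55_P2059040, chr15:78021549-78021608) lay between 15.31 and 16.50, with a mean loading of 0.37 (SE 0.20). The loading differences were 0.22 (SE 0.28; 0.12 without WT replicate 1) and -0.25 (SE 0.39). With 75th percentile scaling the brighter probe gave -1.12, against 0.96 in the authors' table of values, so the direction of its loading difference depends on the scaling.

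**Figure D2:**
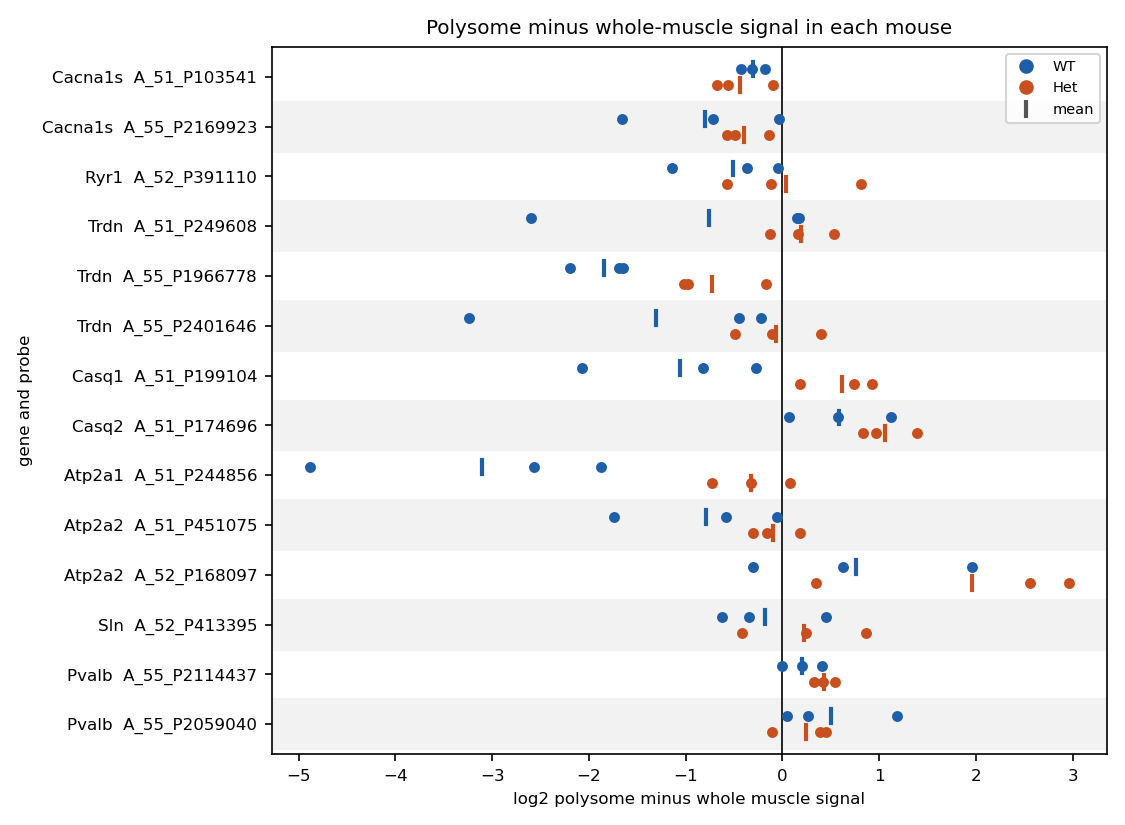
Loading (log2 polysome minus whole-muscle signal, horizontal axis) of the 14 probes in each of the 3 WT (blue) and 3 Het (orange) mice, with the genotype means as bars. For Atp2a1 the WT mice lie between -4.89 and -1.87 and the Het mice between -0.73 and 0.08, for Casq1 the genotypes lie on opposite sides of 0, and for Casq2 all mice lie above 0.

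Over the 9 genes (brightest probe each), the median loading difference was 0.56, beside 0.15 over all tested probes, and 8 of 9 were above 0, as were 59% of all tested probes. The groups of 2 genes, Atp2a1 and Casq1, did not overlap with Het higher (13% of all probes). In polysomes 9 of 9 genes were above 0 (52.4% of all probes), and the groups of 4, Atp2a1, Casq1, Trdn and Atp2a2, did not overlap with Het higher (13.2% of all probes). In whole muscle the groups of Atp2a1 and Casq1 did not overlap, with Het lower (8.2% of all probes). Since loading differences chose the genes, nothing is read from these shares. Of the muscle marker lists 1 moved with them: over the 8 general skeletal muscle markers the summed log2 level was 17.06 to 17.72 in WT polysomes and 17.73 to 17.94 in Het polysomes, and 17.90 to 18.53 in WT against 17.73 to 17.83 in Het whole muscle. Within that list loading differences were highest for Acta1 (1.1), Ckm (1.702) and Des (1.503), while Neb (-0.24), Mybpc2 (-0.07) and Ttn (0.02) stood near or below 0. The sums of the 10 fast-fibre markers (20.01 to 20.06 in WT and 19.85 to 20.12 in Het polysomes) and of the 10 slow-fibre markers (14.64 to 15.76 and 14.91 to 15.38) overlapped. The 6 blood markers tested, globins and Alas2, summed to 16.37 to 17.65 in WT polysomes and 15.35 to 15.79 in Het polysomes. The part of these shifts in the loading differences was not tested. That of array brightness cannot be told apart from genotype, since its polysome minus whole-muscle differences did not overlap between WT and Het mice. With brightness as a term the median over the 9 genes was -0.20, and 4 of the 9 genes (Casq1, Atp2a1, Sln and Pvalb) were above 0.

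**Figure D3:**
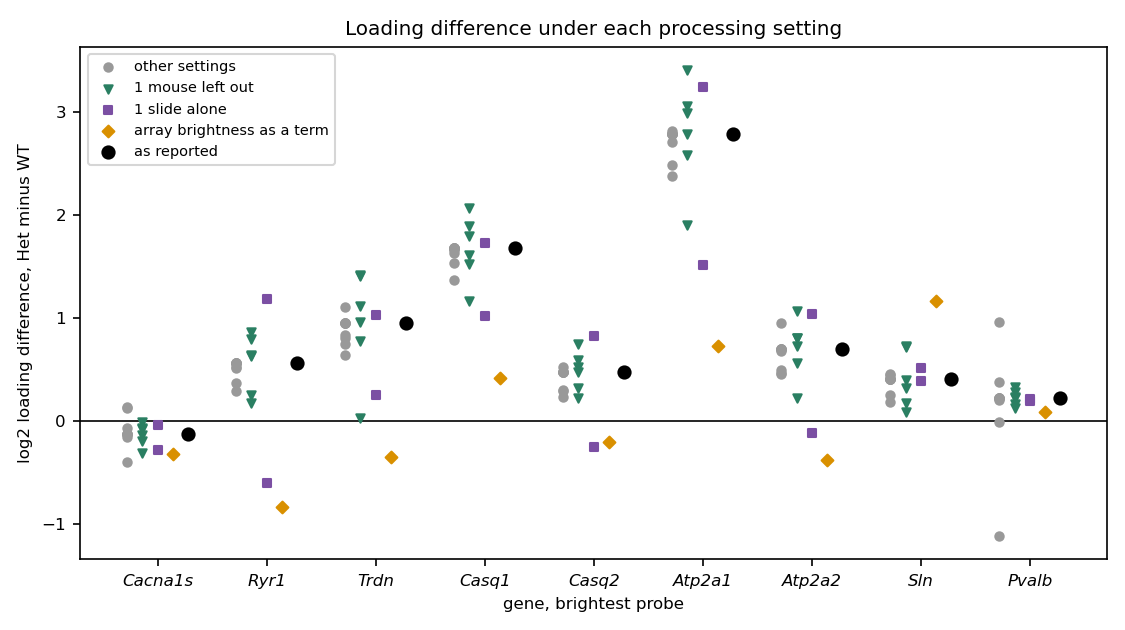
Loading difference, Het minus WT (log2, vertical axis), of the brightest probe of each gene under each processing setting. On 1 slide alone, arrays of different mice were fitted as unpaired groups. Black points are the values as reported; Atp2a1, Casq1 and Sln lie above 0 under every setting plotted, and each of the other genes falls below 0 under at least 1.

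Mean loading over both genotypes was above 0 for 3 of 9 genes (56.3% of all probes). Every mouse was above 0 for Casq2 and for Pvalb, whose lowest mouse stood at 0 to 2 decimals (15.6% of all probes), and every mouse was below 0 for Cacna1s (12.9% of all probes). The median over the 9 genes was -0.24 and that of all probes 0.10. With 75th percentile scaling the median of the genes was -0.54. These counts come from the loading values that chose the genes, and nothing is read from them.

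The monosome arrays played no part in the loading differences that chose the genes. Between genotypes, 0 of 9 genes passed an adjusted p of 0.05 by limma or by the methods' t-test, beside 0.479% of the 20251 probes tested by limma. At an unadjusted p under 0.05 limma passed 2 of 9 genes, Trdn and Atp2a2, beside 33.1% of probes. Sln was higher in Het monosomes without overlap, 6.63 and 6.997 against 5.31 and 5.49 in WT (difference 1.41, SE 0.84, adjusted p = 0.236). Casq2 was 5.87 and 5.49 in Het and 5.93 and 7.64 in WT (difference -1.10, SE 0.52, adjusted p = 0.155, and -0.24 without WT replicate 2). The second Pvalb probe was 16.22 and 15.88 in Het and 15.33 and 14.47 in WT (difference 1.15, SE 0.35, adjusted p = 0.0904), while the brighter one differed by 0.29 (adjusted p = 0.474). The groups did not overlap for 4 genes with Het higher (26.8% of probes) and for 1 with Het lower (23.6% of probes).

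The Trdn and Atp2a2 values in monosomes, like that of Casq2, rested on WT monosome 2. There the brightest Trdn probe read 7.48, against 11.54 on WT monosome 1 and 11.76 on both Het arrays (difference 2.26, SE 0.99, adjusted p = 0.137). The brightest Atp2a2 probe read 4.32 there, not well above background, against 6.74, 7.07 and 7.44 on the others (difference 1.72, SE 0.60, adjusted p = 0.104). Without WT replicate 2 these differences were 0.23 and 0.51. Without WT replicate 1, where WT monosome 2 stands alone and is assumed to vary like the other groups, they were 4.29 and 2.93, and limma passed these 2 genes and Casq2 (-1.95), as it did 53.6% of all probes.

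Within each mouse, polysomes were set against monosomes in the 2 WT and 2 Het mice that had both. The polysome arrays also entered the loading differences that chose the genes, so the p-values of this comparison are not independent of that choice. By limma 0 of 9 genes, and 0 of 20251 probes, passed an adjusted p of 0.05, and the smallest adjusted p of any probe was 0.0574. At an unadjusted p under 0.05 limma passed 7 of 9 genes, beside 40.9% of probes, and the methods' t-test passed 4 of 9, with 0 of 9 after adjustment. Cacna1s was lower in polysomes than in monosomes in 4 of 4 mice by both probes. The brighter probe gave -1.62 and -1.51 in WT and -1.37 and -1.42 in Het (mean -1.48, SE 0.20, 2.78-fold, adjusted p = 0.0574), and the second -2.03, -1.53, -0.88 and -0.84 (mean -1.32, SE 0.22, adjusted p = 0.0574). Casq1 was higher in polysomes in 4 of 4 mice, by 0.73 to 1.04 in WT and 1.93 to 2.17 in Het (mean 1.47, SE 0.21, adjusted p = 0.0574). Casq2 averaged 0.99 (SE 0.26, adjusted p = 0.0715), Pvalb 0.61 (SE 0.23, adjusted p = 0.116) and Ryr1 0.52 (SE 0.21, adjusted p = 0.132). The Atp2a2 average of 0.95 (SE 0.36, adjusted p = 0.119) and the Trdn average of 1.05 (SE 0.36, adjusted p = 0.104) rested on WT replicate 2, which gave 2.31 and 2.37 against 0.48 to 0.53 and 0.52 to 0.73 in the other mice, and were 0.50 and 0.58 without it. The 2 genes whose genotypes lay on opposite sides of 0 were Atp2a1, at -0.93 and -0.55 in WT against 1.27 and 1.58 in Het, and Sln, at 0.21 and 0.24 in WT against -1.29 and -1.39 in Het.

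Over the alternatives the lowest limma adjusted p was 0.000774 for Cacna1s and 0.00537 for Casq1, so these calls depended on the setting. As reported they stood near the threshold. Cacna1s and Casq1 passed it with adjusted p of 0.0295 and 0.0259 under 75th percentile scaling (25.2% of all probes passed) and of 0.0294 each without WT replicate 2 (33.2% of all probes), and missed it at 0.148 and 0.149 with array brightness as a term. A slide term gave the values without WT replicate 2, since only that mouse had its polysome and monosome arrays on different slides, and so is no separate check. Leaving out WT replicate 1 gave 0.017 and 0.0172 (49.1% of all probes passed), and leaving out Het replicate 1 gave 0.378 for each.

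**Figure D4:**
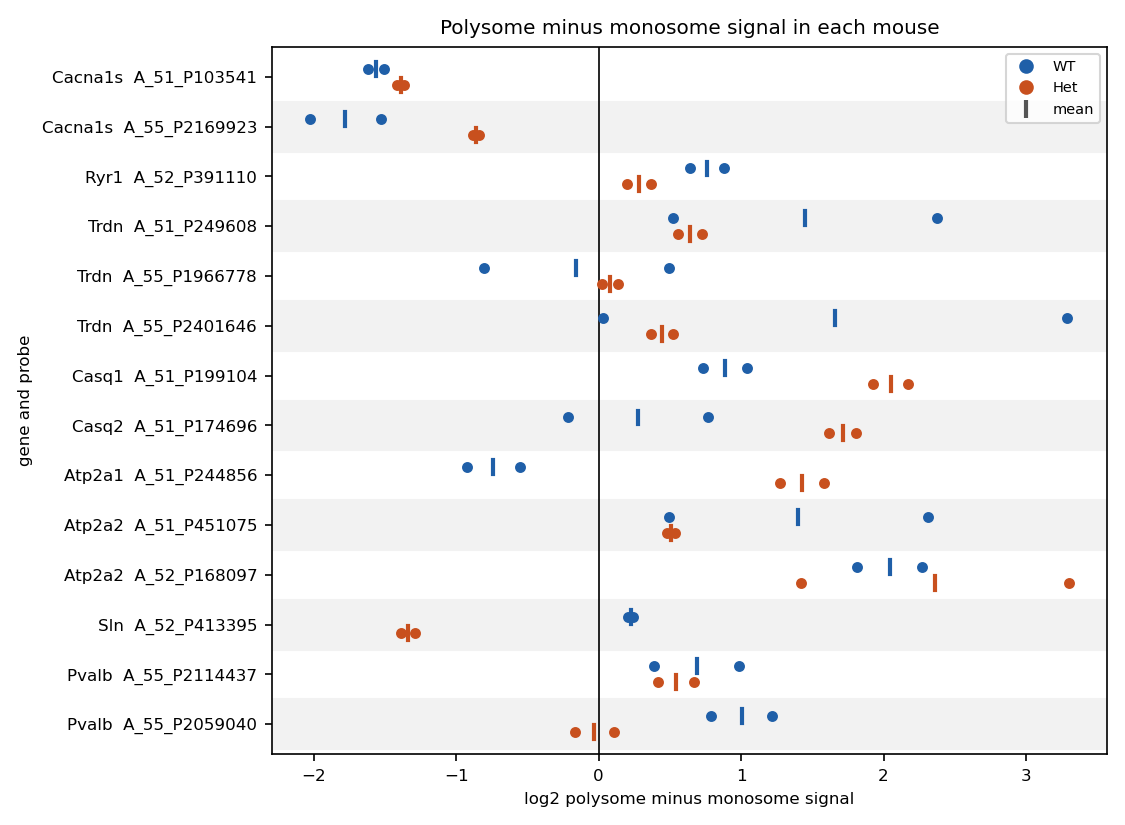
Log2 polysome minus monosome signal (horizontal axis) of the 14 probes in the 2 WT (blue) and 2 Het (orange) mice with both arrays, bars being genotype means. Both Cacna1s probes lie below 0 in all 4 mice, and Casq1 lies above 0 in all 4, with the Het mice at 1.93 and 2.17.

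Where a transcript carries 2 probes, the difference between them was followed over the arrays. A difference between probes on a single array has no meaning by itself, because probes differ in brightness. Over 219 pairs of probes on the same transcript, at least 500 bases apart and well above background on all arrays, the median upstream minus downstream difference was -1.60 to -1.16 on 14 arrays, but -0.12 and 0.34 on WT polysome 2 and WT monosome 2. For Atp2a2, whose probes start 1506 bases apart, it was -3.73 to -2.63 on the 7 of these 14 arrays where both probes were well above background and -0.1 on WT polysome 2. For Trdn, whose probes start 1370 bases apart, it was 5.01 to 6.88 on the 14 arrays and 3.67 on WT polysome 2. On WT monosome 2 neither probe of the Atp2a2 pair or of the Trdn pair was well above background, so those differences have no reading. For Cacna1s and Pvalb, whose probes start 402 bases apart, the 2 arrays lay within the range of the others.

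**Figure D5:**
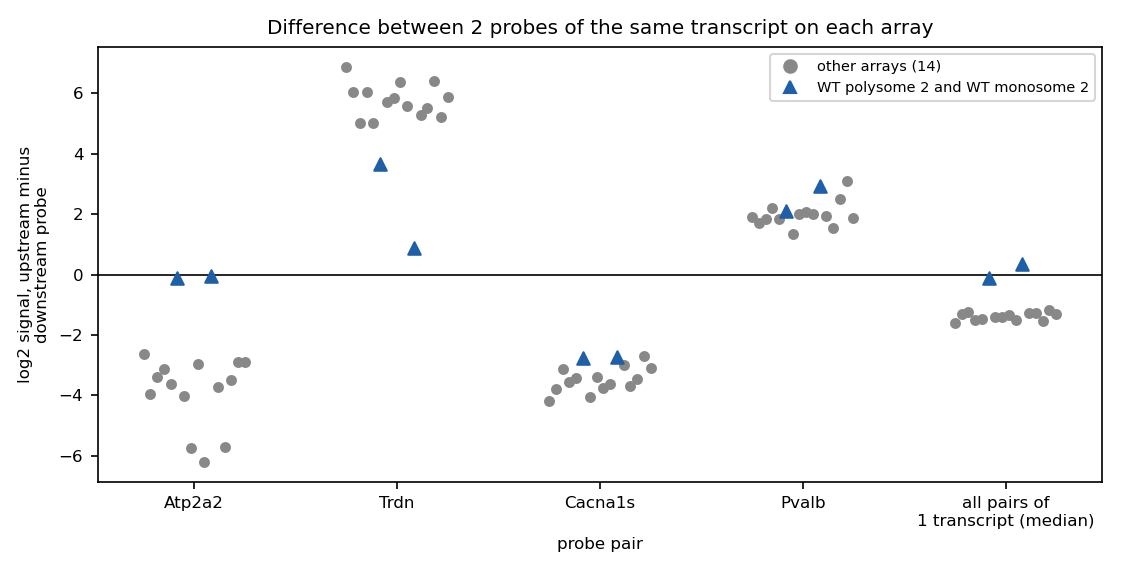
Upstream minus downstream probe signal (log2, vertical axis) on each of the 16 arrays for 4 genes and, as the median, for 219 probe pairs. Triangles are WT polysome 2 and WT monosome 2, which lie above the other arrays for the median of all pairs. On WT monosome 2 the Atp2a2 and Trdn probes were not well above background, and both Atp2a2 probes were so on 8 of the 16 arrays.

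The other genes of the calcium pathway were taken from lists of the triad and reticulum, surface membrane and store-operated entry, mitochondrial uptake and calcineurin signalling, chosen with earlier results of these data known. Of 69 genes 68 were on the array and 58 were tested. In the triad and reticulum list 24 of 28 tested genes had mean loading above 0 (56.3% of all probes), with a median of 0.37, and 11 passed an adjusted p as higher in polysomes and 0 as lower, beside 12.9% and 12.1% of all probes. Highest were Atp2a3, a further SERCA pump (1.17, SE 0.22, limma adjusted p = 0.01), and S100a1, a calcium-binding protein that acts on the release channel and pump (1.13, SE 0.17, adjusted p = 0.00501). In the surface membrane list 4 of 12 passed as higher and 0 as lower, in the mitochondrial list 1 of 6 as higher and 1 as lower, and in the calcineurin list 1 of 12 as higher and 1 as lower, the counts of the last 2 lists being near those shares. The lower gene of the calcineurin list was Myoz2, calsarcin 1 of the Z-disc (-1.31, SE 0.17, adjusted p = 0.0033). Of the fibre-type lists, Tnnt1, the slow troponin T, was highest (1.22, SE 0.15, adjusted p = 0.00252), and 4 of 10 slow-fibre genes passed as higher and 1, again Myoz2, as lower. The fast myosin light chain gene Mylpf (-1.31, SE 0.37, adjusted p = 0.0396) and the fast-fibre actinin gene Actn3 (-0.98, SE 0.19, adjusted p = 0.0129) were the 2 of 10 fast-fibre genes that passed, both lower.

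In the genotype difference of loading, 3 of 28 genes of the triad and reticulum list passed the study's threshold (absolute log2 difference above 1 and unadjusted p under 0.05) as higher in Het and 1 as lower, beside 6.33% and 7.46% of all probes, and the median was 0.19. After adjustment 0 of 19814 probes passed by limma as reported (3324 at an unadjusted p under 0.05) and 0 by the methods' t-test (2707 unadjusted). None of the genes named here thus passed as reported, while counts over all probes under other settings are given below. Highest were the junctophilins, which hold the reticulum to the transverse tubule. Jph2 had a loading difference of 1.95 (SE 0.60; loading -0.97 ± 1.17 in WT and 0.97 ± 0.42 in Het) and Jph1 of 1.89 (SE 0.54; -0.71 ± 0.89 and 1.19 ± 0.62; SD, n = 3 each). As for Atp2a1 and Casq1, their whole-muscle groups did not overlap, with Het lower (-1.70 and -1.11). Unlike those of Atp2a1 and Casq1, their polysome groups overlapped (differences of 0.25 and 0.79). Among the exporters of the surface membrane, the sodium-calcium exchangers Slc8a3 (-1.81, SE 0.41) and Slc8a1 (-1.26, SE 0.47) and the calcium pump Atp2b2 (-1.33, SE 0.36) were lowest. That list had 0 of 12 genes past the threshold as higher and 3 as lower, against the same shares of all probes.

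The pattern of Atp2a1 over the 12 whole-muscle and polysome arrays was compared with that of 15589 other genes, as Pearson's r between brightest probes, given as a description since the arrays share their normalization and their mice. The 5 highest were 4 sequences to which the array design gives no gene symbol (A_66_P140076, 0.987, NAP060031-1, 0.985, A_55_P2037689, 0.984, and NAP061234-1, 0.983) and Gm13315 (0.98). Among the 9 genes themselves r with Atp2a1 was 0.84 for Casq1, 0.69 for Ryr1, 0.58 for Atp2a2 and 0.50 for Cacna1s. It was 0.23 for Trdn, 0.07 for Sln, -0.36 for Casq2 and -0.43 for Pvalb.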

How the data were processed

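RNA was labelled in 1 colour (Cy3) and hybridised to Agilent mouse arrays. The deposited scanner files hold spot intensities that the authors extracted with Feature Extraction 11.0.1.1, with the background subtracted and no scaling between arrays. The authors' processed table holds log2 values with nearly equal medians per array (5.68 to 5.70) that rank as the raw median signal does (Spearman 1), without background subtraction. It served as an alternative.

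Of 62976 spots per array 59305 were not controls. No spot was saturated. Outlier spots were left out, processed intensities were log2 transformed and quantile-normalized (12 arrays, or 16 where monosomes entered), and spots of a probe were averaged. A probe was tested where 1 or more groups had it well above background on all their arrays (19814 and 20251 probes). Within-mouse ratios or group means were fitted with limma 3.58.1 in R 4.3.3, and p-values were adjusted by Benjamini and Hochberg's method over every probe tested. For the 9 genes, values built from the loading ratios that chose them are described without a test, and calls on them are counted only among the alternatives. The brightest probe stood for a gene. The design text states that each mouse gave all kinds of RNA. Deviations of the whole-muscle and polysome arrays of a mouse from their group means correlated at 0.059 to 0.485. The fits were tested on simulated data with equal, independent noise for every probe and no mouse, slide or brightness effect. That checks the calculation, not how the fits behave under such effects. Plots used matplotlib 3.10.9. Alternatives covered background correction, scaling, filters, slide, brightness, pairing, the test and each mouse. Named genes were the 9 genes with all their probes, the 3 highest and 3 lowest genes of the pathway and fibre lists by mean loading and by loading difference, and the 5 genes most correlated with Atp2a1; 1 gene that this rule names is not reported here. The members, lists and rules were chosen with earlier results of these data known. The precision is limited by 2 or 3 arrays per group.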

Additional observations from a re-analysis of the deposited data

Results flagged for a closer look

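For 3 genes the WT and Het mice lay on opposite sides of 0 in a within-mouse ratio, and these differences between genotypes are descriptions that were not tested independently of the choice of the genes: the polysome arrays in all 3 entered the loading differences that chose them. Loading of Casq1 (polysome minus whole muscle) was below 0 in 3 of 3 WT mice and above 0 in 3 of 3 Het mice, with means of -1.05 and 0.62 and a difference of 1.67. The polysome minus monosome signal of Atp2a1 was below 0 in 2 of 2 WT mice and above 0 in 2 of 2 Het mice, with means of -0.74 and 1.43 and a difference of 2.17, while the monosome arrays alone differed by -0.35. That of Sln ran the other way, above 0 in 2 of 2 WT mice and below 0 in 2 of 2 Het mice, with means of 0.23 and -1.34 and a difference of -1.57.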

How the results depend on the processing

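The median loading difference of the 9 genes (0.56) lay between 0.39 and 0.56 under changes of background correction, scaling, filter, slide or probe averaging, turned to -0.20 with array brightness as a term, and ranged from 0.22 to 0.80 on leaving out each mouse. Over all probes, limma passed 0 loading differences as reported, with 75th percentile scaling and with array brightness as a term. It passed 460 with normexp correction, 443 in the authors' table and 638 of 11478 with probes well above background on every array. The median mean loading (-0.24) was -0.54 with 75th percentile scaling. The median polysome minus monosome signal (0.61) was 0.51 with 75th percentile scaling and 0.50 with slide as a term, and 0.50 to 0.68 on leaving out each mouse. The 2 genes called for mean loading, a count that is not independent of the choice of the genes and from which nothing is read, became 0 without a filter and on each slide alone and 1 by the methods' t-test, and were 0 to 2 on leaving out each mouse. The 0 genes called for polysome minus monosome became 6 with normexp correction, 6 in the authors' table, 7 with probes well above background on every array, and 4 with 75th percentile scaling, with slide as a term and with no replicate block (arrays fitted as unpaired groups), and were 0 to 5 on leaving out each mouse. Over all probes that count was 0% as reported, 24.4% with normexp correction, 26.1% in the authors' table, 51.3% with probes well above background on every array, 25.2% with 75th percentile scaling, 33.2% with slide as a term (the same fit as without WT replicate 2), 25.3% with no replicate block and 49.1% without WT replicate 1. For monosomes it was 97 probes as reported, 844 with normexp correction, 28 with the replicate block, and 0 with 75th percentile scaling or by the methods' t-test. The replicate block left the medians of whole muscle (-0.16) and polysomes (0.39) as they were, and no replicate block left that of mean loading (-0.24) and its 2 calls. Directions of mean loading and of monosome differences turned in these cases, none of them called. Mean loading of Sln (0.03) was -0.017 with normexp correction and -0.001 in the authors' table, and -0.13 to 0.19 on leaving out each mouse. On slide 1 alone it was -1.02, with polysomes set against the whole muscle of other mice, as in every fit of loading on 1 slide. Mean loading of Trdn (-0.28) was 0.094 on slide 2 alone and -0.52 to 0.18 on leaving out each mouse, that of Atp2a2 (-0.44) was 0.46 over the mean of its probes, and that of Casq1 (-0.22) was -0.414 to 0.037 on leaving out each mouse. In monosomes Cacna1s (-0.20) was 0.31 in the authors' table, and on leaving out each mouse it was -0.439 to 0.047, Atp2a1 -1.64 to 0.94 and Casq1 -0.65 to 0.86. The whole-muscle median turned to 0.103 on slide 1 alone and 0.028 without Het replicate 3. In whole muscle Pvalb kept its sign in 12 of 18 alternatives, and Sln and Atp2a2 in 15. Sln kept its sign in 14 of 18 in polysomes and in 13 of 18 for mean loading. The cause was not tested. Dim signal limited the upstream Atp2a2 probe most.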
